A study of Mus musculus with 14 samples.

Results

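Id2 was over-expressed in mouse acute myeloid leukaemia cells, and gene expression was compared with that of cells given a control virus. The comparison covers all 14563 genes of the table deposited for the transduced cells, in 3 Id2-GFP and 3 control-GFP libraries, which are 6 of the 14 libraries of the series. The libraries were paired by the replicate number in their names, and each result is a difference within 3 pairs. All cells were Tet-Off MLL-AF9 leukaemia of strain C57/BL6, taken from the spleens of terminally sick mice. The leukaemias had been made by putting 2 retroviral vectors into foetal liver cells, which were then given to irradiated mice. One vector carried MLL-AF9, a fusion oncogene that doxycycline can switch off, with a dsRED reporter, and the other carried NRASG12D and the activator of the Tet-Off promoter. No doxycycline was given to either of the transduced groups, so both kept MLL-AF9 and NRASG12D. The cells received a retrovirus in culture, either Id2-GFP or control-GFP, and were sorted for GFP 2 days later. The number of primary leukaemias behind the 3 pairs and the promoter that drives Id2 are not given in the sources used here.

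Id proteins are helix-loop-helix proteins that lack the basic region needed to hold DNA. They pair with the E proteins, encoded by Tcf3, Tcf4 and Tcf12, and keep them from binding E-boxes, short DNA sites with the letters CANNTG. E proteins drive lymphoid development, and Tcf4 is required for plasmacytoid dendritic cells. Id2 itself is known for its part in conventional dendritic cells, natural killer cells and other innate lymphocytes.

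The transduced gene was checked first. Id2 stood at 1266, 952 and 1631 CPM (CPM are reads scaled to a common library size, as the table gives them) in the Id2-GFP libraries of pairs 1, 2 and 3, and at 25.8, 31.2 and 51.5 CPM in the control-GFP libraries. All 3 Id2-GFP libraries lay far above all 3 control libraries. The difference was 5.18 ± 0.21 on the log2 scale (mean of 3 pairs ± SE, limma's adjusted p = 5.5e-06), or 36.2-fold, and was 5.46 without the control library of pair 3. Here and below, a difference or list median without that library sets all 3 Id2-GFP libraries against the control libraries of pairs 1 and 2. Such a value ignores the pairs, so a level particular to pair 3 moves it as well. An exact two-sided permutation test of Id2 gave p = 0.1 for 3 against 3 libraries and p = 0.25 within pairs, the smallest that each design can give. Reads of the vector and of the cells' own Id2 gene (chr12:25093799-25097140, minus strand, GRCm38) cannot be told apart in the table.

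The only gene with a larger difference was Gm6175, a processed pseudogene, which is a copy of a spliced transcript that was put back into the genome (chrX:100585009-100585408, plus strand, GRCm38). Its transcript of 400 bases aligned with the Id2 transcript over 380 columns at 91.6% identity, with 21 mismatches and 11 gap columns, and the aligned stretch covered 93.3% of the coding bases of Id2. The 90 bases from coding base 48 to coding base 137 of Id2 are shown with their counterpart in Gm6175, as a stretch with few mismatches that shows how alike the copies are. Capitals mark the 3 bases at which the sequences differ.
Id2: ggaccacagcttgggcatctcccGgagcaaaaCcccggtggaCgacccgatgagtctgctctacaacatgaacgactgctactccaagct
Gm6175: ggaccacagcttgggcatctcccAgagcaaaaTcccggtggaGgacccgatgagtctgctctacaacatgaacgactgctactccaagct
Gm6175 held 803 reads in the 3 Id2-GFP libraries and 6 in the 3 control libraries, a ratio of 131 per depth with an exact 95% interval of 59.9 to 358 for counting error only. Those 803 reads equal 1.42% of the 56567 Id2 reads of the same libraries. Its difference was 6.76 ± 0.38. It reached the table only through the Id2-GFP libraries and so had to differ, and its adjusted p is not given as support. Since the counting can split reads between near-identical copies, the value of Gm6175 is uncertain as a measure of that locus.

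The other genes of the Id and E-protein families did not pass the test. Id1 had 7.76, 11.7 and 4.79 CPM with Id2-GFP and 8.68, 12 and 11.8 CPM in the controls, a difference of -0.50 ± 0.29 that was below 0 in 3 of 3 pairs. Id3 was between 0.07 and 3.48 CPM in all 6 libraries. The 3 genes for E proteins, the partners of Id2, were at similar levels in both groups: Tcf3 differed by -0.07 ± 0.18, Tcf4 by 0.29 ± 0.22 and Tcf12 by 0.22 ± 0.21, and by 0.03, 0.15 and -0.05 without the control library of pair 3. Tcf4 was the highest of them in CPM, at 349 to 416 CPM with Id2-GFP and 259 to 363 CPM in the controls, although CPM does not correct for gene length. Reads counted on the genes that the oncogenes were made from were also near their control levels. For these genes too, reads of the vectors and of the cells' own copies cannot be told apart. Mllt3, which gives AF9, differed by -0.24 ± 0.20, Mll1 (the symbol in the table for Kmt2a) by 0.10 ± 0.34 and Nras by 0.07 ± 0.24, and without the control library of pair 3 the values were -0.37, -0.47 and -0.26. For Mll1 the pairs differed more than the groups: it had 4786 and 6369 CPM in the libraries of pair 2 and 1234 to 2529 CPM in the other 4 libraries. Hoxa9, Meis1, Myb and Myc, known members of the MLL-AF9 programme, differed by 0.19, 0.42, -0.14 and -0.04 and did not pass. Without the control library of pair 3 they differed by 0.46, 0.15, -0.35 and 0.41, which turned the sign of Myc.

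**Figure D1:**
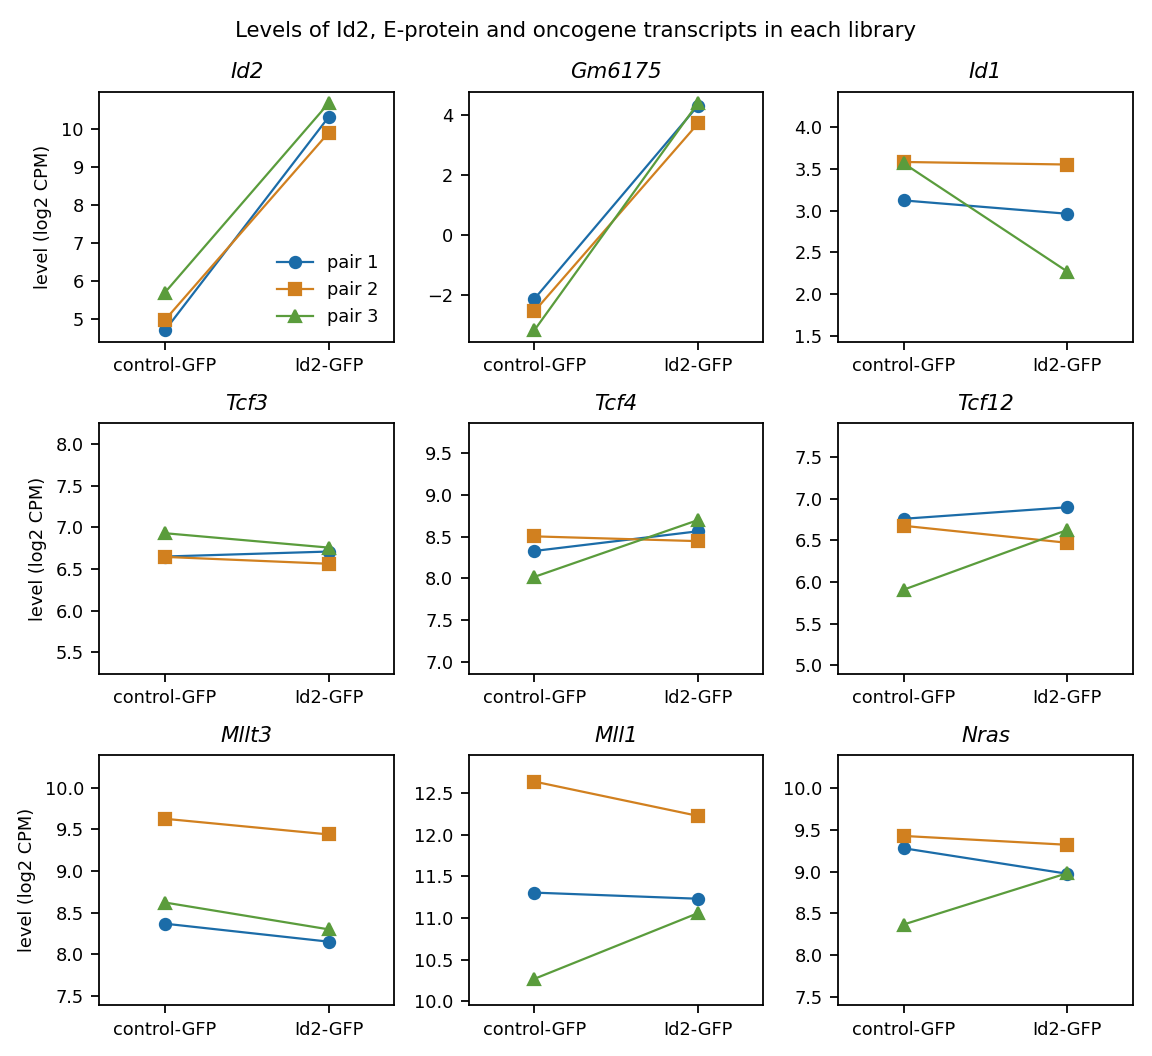
Level of 9 genes in each library (vertical axis, log2 CPM; the span of each axis is at least 3 log2 units), with a line joining the control-GFP and Id2-GFP library of each pair. Id2 and Gm6175 lie apart in the 2 groups, while the lines of Tcf3, Tcf4, Tcf12, Mllt3, Mll1 and Nras stay within about the spread between pairs.

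Depth was 14051150 to 14948487 reads per library. The control library of pair 3 stood apart from the rest: its median correlation with the other libraries was 0.933, against 0.954 to 0.979 for the other 5, and the first principal component, with 57.8% of the variance, separated it from them. The differences within pair 3 were wider, with an SD over genes of 0.805 against 0.393 and 0.443 in pairs 1 and 2, and 15.7% of genes differed at least 2-fold there against 2.75% and 3.51%. The defining markers chosen for B cells, natural killer cells and fibroblasts had no values analysed here. Of the longer lists of such cells, no gene passed among 4 B cell, 6 T cell, 9 innate lymphoid and natural killer, and 7 fibroblast and stromal genes. In 3 of 3 pairs the B cell list had 1 gene higher and 1 lower, the T cell list none, the innate lymphoid list 2 and 1, and the fibroblast list 3 and 1, the last with a median of 0.33, or -0.09 without the control library of pair 3. The erythroid markers Hbb-b1 and Hba-a1 summed to 15.8 CPM in that control library and to 0.207 to 2.22 CPM in the other 5. The sum of 8 markers of leukaemic myeloid progenitors was 1381 to 1791 CPM with Id2-GFP and 1689 to 2314 CPM in the controls. Macrophage-marker reads came from Emr1 alone and were 104 to 182 CPM with Id2-GFP and 49.8 to 141 CPM in the controls. Neutrophil markers summed to 9.92 to 13.1 and 9.99 to 15.3 CPM, and mast-cell and basophil markers to 111 to 369 and 99.7 to 282 CPM. Megakaryocyte markers summed to 20.3 to 40.2 and 40.2 to 93.7 CPM, and the T-cell marker Lck had 0.326 to 0.832 and 0.138 to 2.16 CPM. The part of these cells in the results was not tested.

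In the paired test, 35 genes passed an adjusted p of 0.05, which is 0.24% of the genes. Of these, 16 rose (0.11%) and 19 fell (0.13%), and 914 genes (6.28%) had an unadjusted p under 0.05. All 35 differed in the same direction in 3 of 3 pairs, a pattern seen in 3992 genes (27.4%) of the table, and 31 of them changed at least 2-fold in every pair, as 53 genes did upward (0.364%) and 32 downward (0.22%) in the whole table. The table holds genes with over 1 CPM of the library total in at least 2 libraries. Of the 35, Ddx4, Auts2, Ms4a4b and Gm6175 reached that floor only through the Id2-GFP libraries and Ccdc135 only through the controls, so these 5 had to differ to be in the table. The groups did not overlap in 28 of the 35, against 1012 genes (6.95%) in the table: 13 of the 16 that rose (3.18% of the table) and 15 of the 19 that fell (3.77%). Without the control library of pair 3 the number was also 28, where the table had 20.2%. The test with no replicate block, which ignores the pairs, called 2 genes, Id2 and Gm6175 (0.0137%), with 357 genes (2.45%) at an unadjusted p under 0.05. The other 33 lost their call there, with adjusted p from 0.0677 for Fam65a to 0.998. With the pair as a random effect, 4 genes passed (0.0275%), or 6 without the control library of pair 3 (0.0412%), and with voom weights on the recovered reads and the block, 44 passed (0.302%), all 35 among them. With library totals as the scale in place of the authors' scaled sizes, 9 of the 35 passed, and the other 26 had adjusted p from 0.0519 to 0.0967.

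**Figure D2:**
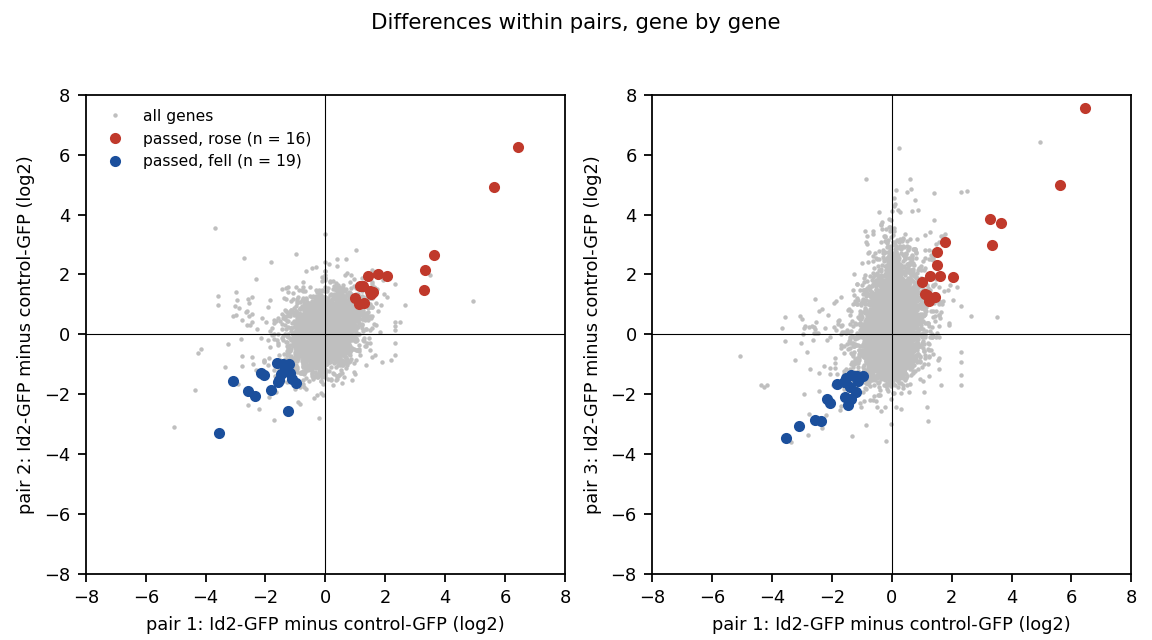
Difference between Id2-GFP and control-GFP in pair 1 (horizontal axis, log2) against that in pair 2 (left) and pair 3 (right), with 1 point per gene. The 16 genes that rose lie in the upper right and the 19 that fell in the lower left of both panels, and the cloud of all genes is taller for pair 3, whose differences had an SD of 0.805.

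Each of the 35 was then examined without the control library of pair 3. The differences of pairs 1 and 2, and the difference of the 3 Id2-GFP libraries from the control libraries of pairs 1 and 2, kept the direction for all 35, against 5142 genes (35.3%) in the table. All 35 already differed in 1 direction in 3 of 3 pairs, so the signs of pairs 1 and 2 were fixed beforehand. The share of the table is therefore no separate support. For 27 of the 35, the size of the second of these differences, which ignores the pairs, stayed within 1.5 times as well (14.3% of the table). The median ratio of the value without the control library of pair 3 to the value with it was 0.861. The 8 genes whose size moved further were Il12a, Cdh17, Myof, Col4a5, P2rx7, Gem, Rab19 and Msrb3. With the pairing kept, in pairs 1 and 2 alone, they differed by -1.27, -1.23, 1.43, 1.89, 1.17, -1.30, 1.48 and -1.71 in that order. Over the 3 pairs they differed by -1.30, -1.28, 1.72, 2.28, 1.43, -1.33, 1.91 and -1.91. The fit of pairs 1 and 2 alone called all 35 among 468 genes (3.21%). Its variances rest wholly on the trend over genes, because limma estimated no spread of variances around the trend, so its p-values are small. With no replicate block and without that library, 3 genes passed (0.0206%): Id2, Gm6175 and Fam65a.

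**Figure D3:**
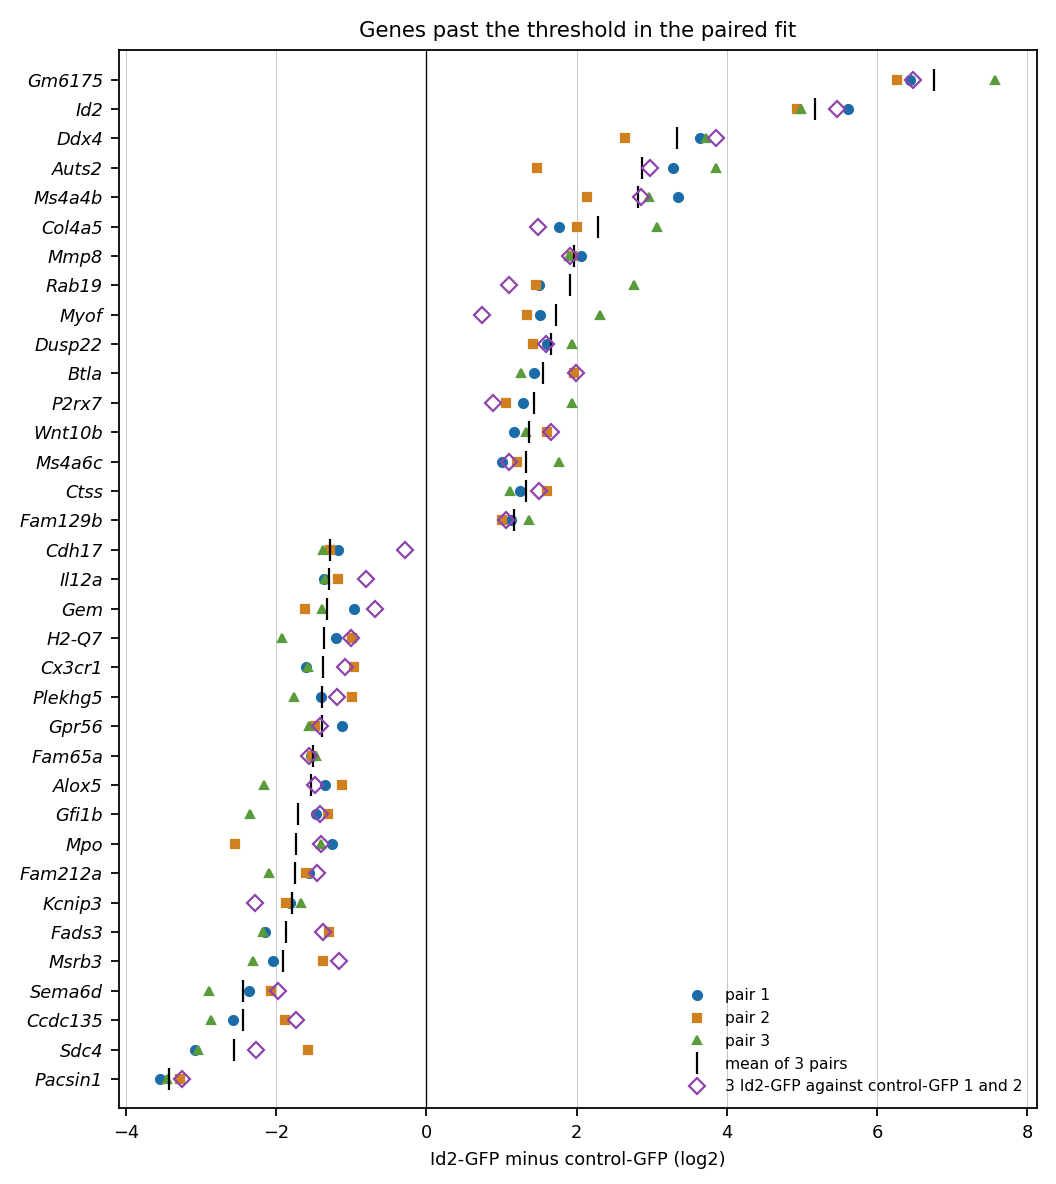
Difference between Id2-GFP and control-GFP (horizontal axis, log2) for the 35 genes past the threshold, with a symbol for each pair, a bar for the mean of the 3 pairs and a diamond for the 3 Id2-GFP libraries against the control libraries of pairs 1 and 2. All symbols of a gene lie on the same side of 0, and the diamond of Cdh17 at -0.28 is the nearest to it.

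Among the called genes that fell, Pacsin1 had the largest difference. Pacsin1, an adaptor of endocytosis that is abundant in neurons and plasmacytoid dendritic cells, had 1.96, 0.84 and 1.8 CPM with Id2-GFP and 23.2, 8.43 and 20.1 CPM in the controls. Every Id2-GFP library was below every control, and the 3 paired differences were -3.55, -3.28 and -3.45. The mean was -3.43 ± 0.26 (adjusted p = 7.0e-04), a 10.8-fold fall, and the difference was -3.25 without the control library of pair 3. Fewer cells of a type and less RNA per cell cannot be told apart in such bulk libraries. Of the 16 measured genes of the plasmacytoid dendritic list, Pacsin1 alone fell and none rose. There, 6 of 16 were lower in 3 of 3 pairs and 1 was higher, where the table had 14.6% and 12.8%. In pairs 1 and 2 alone, 9 were lower in both and 2 higher, where the table had 26.2% and 27.8%. The median over the list was 0.04 for the mean of the pairs, although it was -0.31, -0.13 and -0.28 within pairs 1, 2 and 3, and -0.03 over all genes. Siglech, the lectin that marks these cells, did not pass, with 0.196, 0.139 and 0.832 CPM against 0.723, 1.24 and 4.91 CPM and a difference of -2.37 ± 0.45 (adjusted p = 0.084). It reached the table only through the control libraries and so had to differ, and neither this value nor its place among the 6 lower genes is support. Atp1b1, a subunit of the sodium pump, differed by -2.22 ± 0.39 (adjusted p = 0.067), and Bcl11a, a transcription factor of plasmacytoid dendritic and B cells, by -2.21 ± 0.68 at under 4 CPM in all libraries. The paired differences of Bcl11a were -4.26, -0.62 and -1.75, and the first rests on 0 against 9 reads. These named genes all fell, but 8 of the 16 had a mean difference above 0. Without the control library of pair 3 Siglech, Atp1b1 and Bcl11a differed by -1.60, -1.47 and -1.35. In pairs 1 and 2 alone they differed by -2.30, -1.76 and -2.44.

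No gene of the lymphoid E-protein target list passed, among 12 measured. In 3 of 3 pairs 1 was higher and 4 lower, where the table had 12.8% and 14.6%. In pairs 1 and 2 alone 4 were higher and 7 lower in both, where the table had 27.8% and 26.2%. The median of the list was -0.03, the same as over all genes. Il7r, the receptor chain through which early lymphocytes receive interleukin signals, had 4.44, 8.57 and 7.42 CPM with Id2-GFP and 23.9, 16.9 and 18.3 CPM in the controls. These groups did not overlap, and the difference was -1.57 ± 0.29 (adjusted p = 0.079) and -1.61 without the control library of pair 3. Ighm, the immunoglobulin heavy chain, is not on that list. It had 127, 257 and 284 CPM against 368, 416 and 814 CPM, a difference of -1.25 ± 0.23 (adjusted p = 0.079). Of 4 measured B cell genes, 1 was higher and 1 lower in 3 of 3 pairs. Cdkn1a, Notch1 and Cxcr4, on the E-protein target list with Il7r, differed by -0.48, 0.57 and 0.20. Without the control library of pair 3 the values were -0.17, -0.11 and 0.23. In pairs 1 and 2 alone they were -0.33, 0.13 and 0.31. In the conventional dendritic list, Id2 was the only one of 14 genes to pass. Itgax, the integrin that marks these cells, differed by -0.96 ± 0.20, by -0.80 in pairs 1 and 2 alone and by -0.27 without the control library of pair 3. The transcription factor Irf4 differed by 1.52 ± 0.46 at under 4 CPM. It is in the table only through the Id2-GFP libraries and so had to differ. Btla, an inhibitory receptor of lymphocytes, rose from 4.67, 3.11 and 9.67 CPM to 12.7, 12.2 and 23.1 CPM, by 1.55 ± 0.24 (adjusted p = 0.044). Il12a, a cytokine subunit made by dendritic cells and macrophages, fell in all pairs, by 1.36, 1.18 and 1.35, from 77.4, 46.7 and 166 CPM to 30.1, 20.6 and 65.4 CPM. The groups of Il12a overlapped. Its difference of -1.30 ± 0.18 was -1.27 in pairs 1 and 2 alone and -0.81 without the control library of pair 3.

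Genes of granules and of monocytes changed in both directions. Mmp8, the neutrophil collagenase, had 12.7, 72.4 and 25.5 CPM with Id2-GFP and 3.02, 18.9 and 6.77 CPM in the controls. The groups overlapped because pair 2 was high in both, while the paired differences were 2.05, 1.93 and 1.90. Mmp8 rose by 1.96 ± 0.21 (adjusted p = 0.010). Mpo, the myeloperoxidase of early granules, had 57.6, 11.4 and 72.1 CPM against 138, 66.6 and 190 CPM and fell by 1.74 (SE 0.25, adjusted p = 0.036). These were the only ones of the 32 measured genes of the neutrophil and granule list to pass. In that list 11 genes were higher and 5 lower in 3 of 3 pairs, and the median was 0.13, or -0.01 without the control library of pair 3. Ctsg, the granule protease cathepsin G, did not pass, at 672, 421 and 289 CPM against 1121, 830 and 625 CPM, a difference of -0.94 ± 0.22 (adjusted p = 0.18). Mmp9, a gelatinase of late granules, differed by 1.06 ± 0.26.

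In the monocyte and macrophage list, 2 of 42 measured genes rose and 1 fell. Ctss, the lysosomal protease cathepsin S of antigen-presenting cells, rose from 29.9, 46.8 and 54.5 CPM to 71.0, 142 and 118 CPM. The groups did not overlap, and the difference was 1.32 ± 0.19 (adjusted p = 0.032) and 1.5 without the control library of pair 3. Ms4a6c, a membrane protein of the MS4A family, rose from 49.9, 55.7 and 33.0 CPM to 100.3, 129 and 112 CPM, by 1.33 ± 0.20 (adjusted p = 0.041). Cx3cr1, the fractalkine receptor of monocytes, moved the other way, from 62.9, 51.4 and 105 CPM to 20.6, 26.3 and 35.2 CPM, a difference of -1.38 ± 0.20 (adjusted p = 0.036). Across the list, 20 of 42 genes were higher in 3 of 3 pairs and 5 were lower, against 12.8% and 14.6% of all genes. In pairs 1 and 2 alone, 25 were higher and 7 lower in both pairs. The median of the list was 0.24, and also 0.24 without the control library of pair 3. The macrophage marker Emr1 ranged higher with Id2-GFP, as given above, and the part of such cells in these counts was not tested. Ms4a4b, another MS4A gene, had 0.39, 1.38 and 0.82 CPM in the controls and 4.31, 6.20 and 6.66 CPM with Id2-GFP, a difference of 2.82 ± 0.35. It too is in the table only through the Id2-GFP libraries. Ms4a4c, of the same family, differed by 1.59 ± 0.31 (adjusted p = 0.092), and reads of such relatives can be split by the counting. Of the lysosome list, Ctss was the only one of 36 genes to pass. Ctsl, Lipa and Cybb differed by 0.71, 0.74 and 0.47, and by 0.30, 0.47 and 0.17 without the control library of pair 3. In pairs 1 and 2 alone they differed by 0.82, 0.59 and 0.35.

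Gfi1b, a repressor that acts in erythroid cells and megakaryocytes, fell from 55.8, 59.6 and 108 CPM to 20.1, 23.9 and 21.1 CPM. The Id2-GFP libraries lay close together and below every control, and the difference was -1.71 ± 0.23 (adjusted p = 0.031) and -1.41 without the control library of pair 3. It was the only one of 11 measured erythroid and megakaryocyte genes to pass, and 6 of 11 were lower in 3 of 3 pairs and none higher. In pairs 1 and 2 alone, 7 of 11 were lower in both and 1 was higher. The list's median was -0.29 over the pairs, and -0.20, -0.79 and -1.55 within pairs 1, 2 and 3, the last with the control library that held 15.8 CPM of erythroid marker reads. Itga2b and Gp9, surface proteins of megakaryocytes and platelets, differed by -1.14 ± 0.23 and -1.25 ± 0.33 and did not pass. Hbb-b2, a globin, had 0.72, 0.55 and 20.3 CPM in the controls and 0.13, 0.07 and 3.12 CPM with Id2-GFP, with an adjusted p of 0.051. Its difference of -2.46 was -2.35 in pairs 1 and 2 alone and -0.82 without the control library of pair 3. The related repressor Gfi1, which acts in granulocytes, differed by 0.81 ± 0.25 over the pairs. Its difference was 0.44 in pairs 1 and 2 alone and 0.05 without the control library of pair 3. No gene of the mast cell, basophil and eosinophil list passed. Of its 8 genes, 5 were lower in 3 of 3 pairs and 1 was higher, where the table had 14.6% and 12.8%. Those lower include Epx at -1.55 ± 0.46, with at most 3.18 CPM in any library, and Gata2 at -0.45 ± 0.19. The mast-cell marker Cpa3, at 93.5 to 365 CPM, went the other way, with a difference of 0.28. Gata2 was at -0.42 in pairs 1 and 2 alone and at -0.85 without the control library of pair 3.

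Of 27 genes of the list of chemokine receptors, integrins and adhesion, Cx3cr1 and Gpr56 fell and none rose. Gpr56 (now Adgrg1), an adhesion receptor of blood stem cells and leukaemias, fell from 515, 375 and 413 CPM to 236, 134 and 140 CPM. All Id2-GFP libraries were below all controls, and the difference was -1.39 ± 0.20 (adjusted p = 0.032) and -1.42 without the control library of pair 3. Fam65a (now Ripor1) had 94.0, 84.5 and 83.9 CPM against 272, 244 and 233 CPM. Its paired differences of -1.53, -1.53 and -1.47 lay closest together among the 35, and its difference of -1.51 ± 0.18 passed also without the pairs once the control library of pair 3 was left out (adjusted p = 0.040). Sdc4, a heparan sulphate proteoglycan, fell from 7.43, 11.7 and 17.5 CPM to 0.85, 3.9 and 2.08 CPM, by 2.57 (SE 0.34, adjusted p = 0.031). Sema6d, a semaphorin, fell from 3.16, 5.67 and 11.1 CPM to 0.59, 1.32 and 1.46 CPM, by 2.44 (SE 0.32, adjusted p = 0.030). The groups did not overlap for either gene. Cdh17, a cadherin, had 42.5, 10.9 and 155 CPM against 96.1, 26.7 and 402 CPM. It differed more between pairs than between groups. Its difference of -1.28 ± 0.18 was -1.23 in pairs 1 and 2 alone. The value without the control library of pair 3, which ignores the pairs, was -0.28.

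Alox5, the lipoxygenase that begins leukotriene synthesis, fell from 202, 228 and 242 CPM to 79.5, 105 and 54.0 CPM, by 1.54 (SE 0.23, adjusted p = 0.036). P2rx7, an ATP-gated channel, rose from 24.5, 37.2 and 9.90 CPM to 59.7, 77.7 and 37.9 CPM, by 1.43 ± 0.22 (adjusted p = 0.041). The rise was 1.17 in pairs 1 and 2 alone and 0.89 without the control library of pair 3. Wnt10b, a secreted Wnt ligand, rose from 5.85, 8.30 and 12.7 CPM to 13.2, 25.3 and 31.8 CPM, by 1.37 ± 0.21 (adjusted p = 0.044). Myof, a membrane repair protein, rose by 1.52, 1.34 and 2.31 within pairs, from 7.69, 27.0 and 1.86 CPM to 22.0, 68.6 and 9.37 CPM. Its difference of 1.72 ± 0.25 was 1.43 in pairs 1 and 2 alone and 0.75 without that control library. Ddx4, a germline RNA helicase, had 0.26, 0.41 and 1.04 CPM in the controls and 3.65, 2.79 and 14.2 CPM with Id2-GFP, a difference of 3.34 ± 0.37. Auts2, a Polycomb-associated protein, had 0.20, 1.66 and 0.74 CPM against 2.22, 4.67 and 11.3 CPM, a difference of 2.87 ± 0.46. Ddx4 and Auts2 were low in all controls, with at most 1.66 CPM, and are in the table only through the Id2-GFP libraries, so their adjusted p-values are not given as support. H2-Q7, a non-classical MHC gene with near-identical neighbours between which reads can be split, fell by 1.37 (SE 0.22). The remaining 11 genes were Col4a5, Rab19, Dusp22 and Fam129b, which rose by 1.16 to 2.28, and Fam212a, Kcnip3, Fads3, Ccdc135, Msrb3, Plekhg5 and Gem, which fell by 1.33 to 2.45. Of these, Kcnip3, a calcium-binding protein, was 3.45-fold lower. Its difference was -1.84 in pairs 1 and 2 alone and -2.28 without the control library of pair 3.

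Among the lists, the proliferation genes had the highest share of members lower in 3 of 3 pairs, with no gene past the test. Of its 49 genes, all measured, 34 were lower in 3 of 3 pairs and none was higher, against 14.6% and 12.8% of all genes. In pairs 1 and 2 alone, 38 were lower in both pairs and none higher, where the table had 26.2% and 27.8%. The median difference was -0.42, against -0.03 over all genes, and was -0.43 without the control library of pair 3. It was -0.07 in pair 1, -0.50 in pair 2 and -0.56 in pair 3. Ccnd3, a cyclin of the G1 phase, had 175, 166 and 150.0 CPM with Id2-GFP and 269, 263 and 320.0 CPM in the controls, a difference of -0.79 ± 0.20 (adjusted p = 0.24). Mcm2, part of the replication helicase, had 283, 138 and 186 CPM against 322, 265 and 272 CPM, a difference of -0.56 ± 0.21. E2f1 and Ccne1, a transcription factor and a cyclin of entry into S phase, differed by -0.45 ± 0.18 and -0.51 ± 0.20. The 18 cell cycle inhibitors were evenly split, with 2 higher and 2 lower in 3 of 3 pairs and a median of -0.04.

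The MLL-AF9 programme had no gene past the test among 35 measured. In 3 of 3 pairs 12 were higher and 6 lower, but in pairs 1 and 2 alone 14 were higher and 16 lower, and the median of 0.19 was 0.07 without the control library of pair 3. Hoxa3 and Hoxa6, homeobox genes of the cluster that MLL fusions keep active, differed by 0.74 ± 0.21 and 0.89 ± 0.28 with no overlap between groups, and by 0.83 and 0.51 without the control library of pair 3. Runx1, a master gene of blood development, differed by -0.49 ± 0.18. Of 24 stem and progenitor genes, 7 were higher and 5 lower in 3 of 3 pairs, but 8 were higher and 12 lower in pairs 1 and 2 alone, and the median of 0.12 was -0.05 without the control library of pair 3. Kit, the stem cell factor receptor, differed by -0.76 ± 0.22 and the immediate early gene Egr1 by -1.15 ± 0.32. Of 28 myeloid transcription factor genes none passed, with Cebpa, the driver of granulocyte fate, at -0.66 ± 0.19 and Klf2 at 0.84 ± 0.19.

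**Figure D4:**
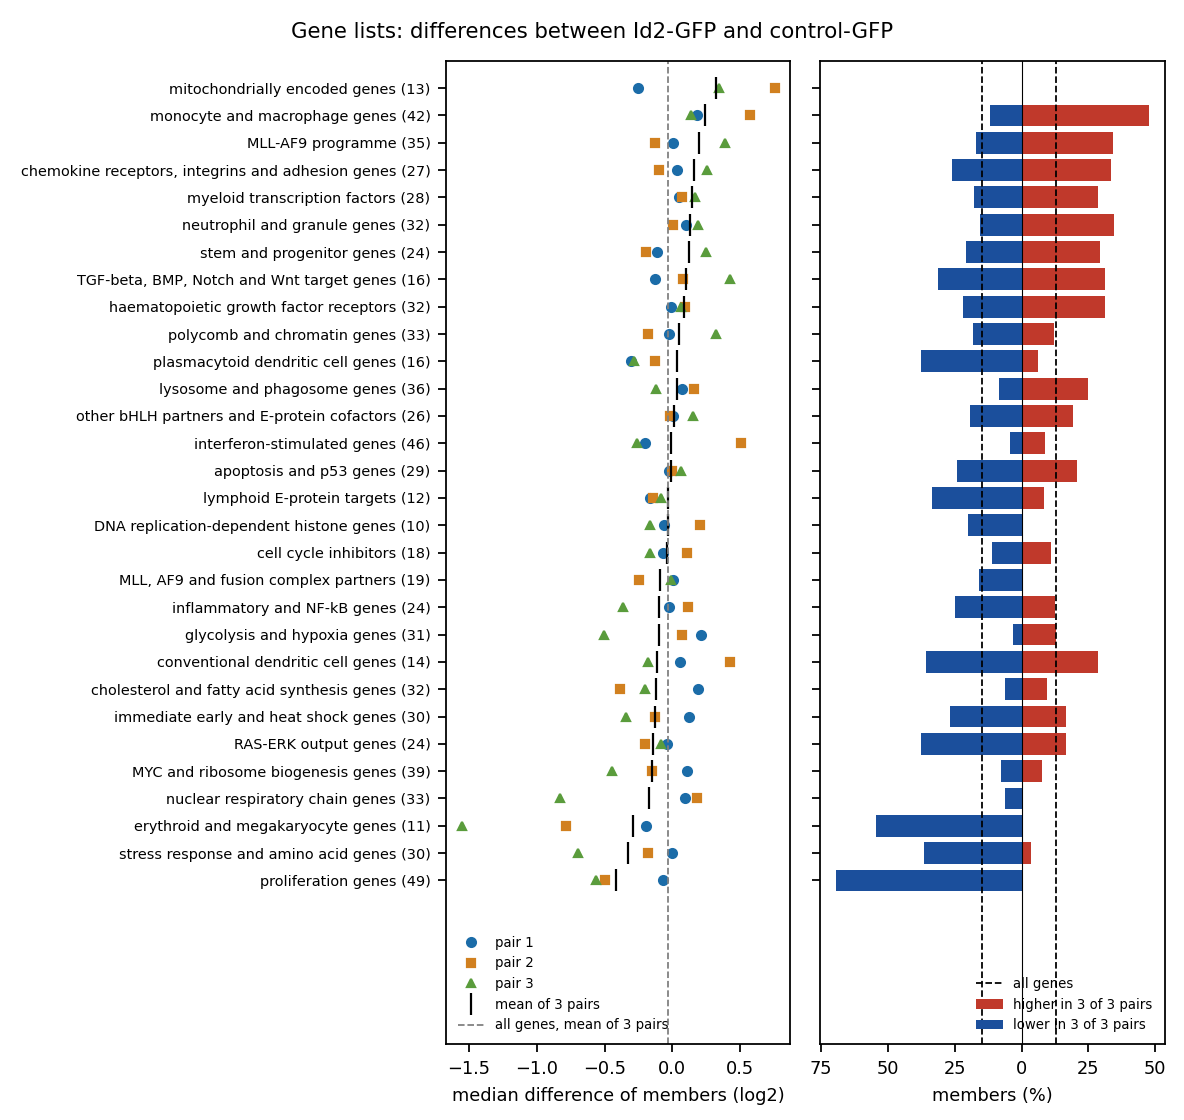
For each gene list with at least 10 measured genes (number in brackets), the left panel shows the median difference between Id2-GFP and control-GFP (log2) in each pair and for the mean of the pairs, with a dashed line at the median of all genes. The right panel shows the percentage of members higher or lower in 3 of 3 pairs, with dashed lines at the 12.8% and 14.6% of all genes; the proliferation list reaches 34 of 49 lower and none higher.

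Promoters of the 35 genes were read for E-box letters, since E-boxes are the sites that E proteins bind. RefSeq promoter sequences of GRCm38.p6, from 250 bases before to 50 after a start, were found for 14 of the 16 genes that rose (15 promoters) and 17 of the 19 that fell (24 promoters). The letters CANNTG, searched on both strands, were in 66.7% of promoters of genes that rose, 75% of those of genes that fell and 64.0% of the 12301 promoters of measured genes. Counted by gene, with any promoter holding the letters, the shares were 64.3%, 70.6% and 67.5%. CAGGTG, which is a CANNTG and reads CACCTG on the other strand, was in 13.3%, 25% and 17.4%, and CAGCTG, also a CANNTG, in 20%, 12.5% and 15%. The counts are 2 and 6 promoters for CAGGTG and 3 and 3 for CAGCTG, too few to set against the background. For genes whose groups did not overlap, 3 promoters with such letters and 1 without are shown, with CANNTG in capitals. Gpr56 is shown by 1 of its 2 promoters, picked because it holds more CAGCTG and CAGGTG matches, and the others have 1 each.
Gpr56 (fell; chr8:94976859-94977158, plus strand): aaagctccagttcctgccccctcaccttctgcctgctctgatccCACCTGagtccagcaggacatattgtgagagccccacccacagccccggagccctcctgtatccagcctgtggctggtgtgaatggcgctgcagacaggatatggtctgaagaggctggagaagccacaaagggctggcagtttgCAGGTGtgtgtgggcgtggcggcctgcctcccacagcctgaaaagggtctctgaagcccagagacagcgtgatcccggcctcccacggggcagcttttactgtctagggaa
Cx3cr1 (fell; chr9:120068247-120068546, minus strand): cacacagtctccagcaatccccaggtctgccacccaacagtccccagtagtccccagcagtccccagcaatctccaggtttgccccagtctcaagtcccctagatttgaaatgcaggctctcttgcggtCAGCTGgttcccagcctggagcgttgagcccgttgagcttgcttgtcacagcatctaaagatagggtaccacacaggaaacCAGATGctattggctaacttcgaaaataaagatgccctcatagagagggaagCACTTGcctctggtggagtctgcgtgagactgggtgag
Ctss (rose; chr3:95526536-95526835, plus strand): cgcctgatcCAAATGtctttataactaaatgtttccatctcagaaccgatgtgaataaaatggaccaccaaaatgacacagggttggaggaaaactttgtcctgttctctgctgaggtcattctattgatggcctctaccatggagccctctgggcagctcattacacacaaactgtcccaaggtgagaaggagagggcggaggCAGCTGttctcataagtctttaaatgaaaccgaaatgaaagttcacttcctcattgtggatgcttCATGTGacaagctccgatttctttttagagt
Pacsin1 (fell; chr17:27684989-27685288, plus strand): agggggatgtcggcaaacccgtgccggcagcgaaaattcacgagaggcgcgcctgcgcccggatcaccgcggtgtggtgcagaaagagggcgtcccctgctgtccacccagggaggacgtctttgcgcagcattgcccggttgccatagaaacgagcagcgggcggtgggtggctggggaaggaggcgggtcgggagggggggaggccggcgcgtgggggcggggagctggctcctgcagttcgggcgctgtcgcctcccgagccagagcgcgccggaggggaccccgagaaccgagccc
Both CAGGTG matches shown are in Gpr56, and Pacsin1, the gene that fell most, holds no CANNTG in this window. A match describes letters only, and no factor was measured at these sites.

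Tet-Off MLL-AF9 leukaemia cells were also compared with and without 4 days of doxycycline, which switches MLL-AF9 off. That comparison has 8 other libraries that were normalized apart. Whether they came from the same primary leukaemias as the transduced cells is not given in the sources used here. The 2 comparisons share no library, and their values are set side by side with no test between them. Of the 35 genes, 32 were in that table. Of the 13 that rose with Id2-GFP, 9 rose with doxycycline and 1 fell. The 9 include Id2, the transduced gene itself. Of the 19 that fell with Id2-GFP, 13 fell and 3 rose, while 6 of the 32 did not pass there. Among the 12655 genes in both tables, 30.7% rose and 35.0% fell with doxycycline, so most genes changed in that comparison. The 9 that rose in both are 9 of the 3881 genes that rose with doxycycline, and the 13 that fell in both are 13 of 4432. Id2 rose by 1.66 with doxycycline, Mmp8 by 3.59, Ctss by 3.06 and Myof by 3.67. Pacsin1 fell by 4.21 there, Gfi1b by 4.54, Il12a by 3.91, Gpr56 by 2.98 and Fam65a by 1.8. The genes that went opposite ways were Sdc4, Cx3cr1 and Alox5, which fell with Id2-GFP and rose with doxycycline by 1.49, 1.52 and 0.75, and Wnt10b, which rose with Id2-GFP and fell with doxycycline by 3.06. Id2-GFP cells had 36.2-fold the Id2 of their controls and MLL-AF9 still on, so the size of the changes is not comparable.

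**Figure D5:**
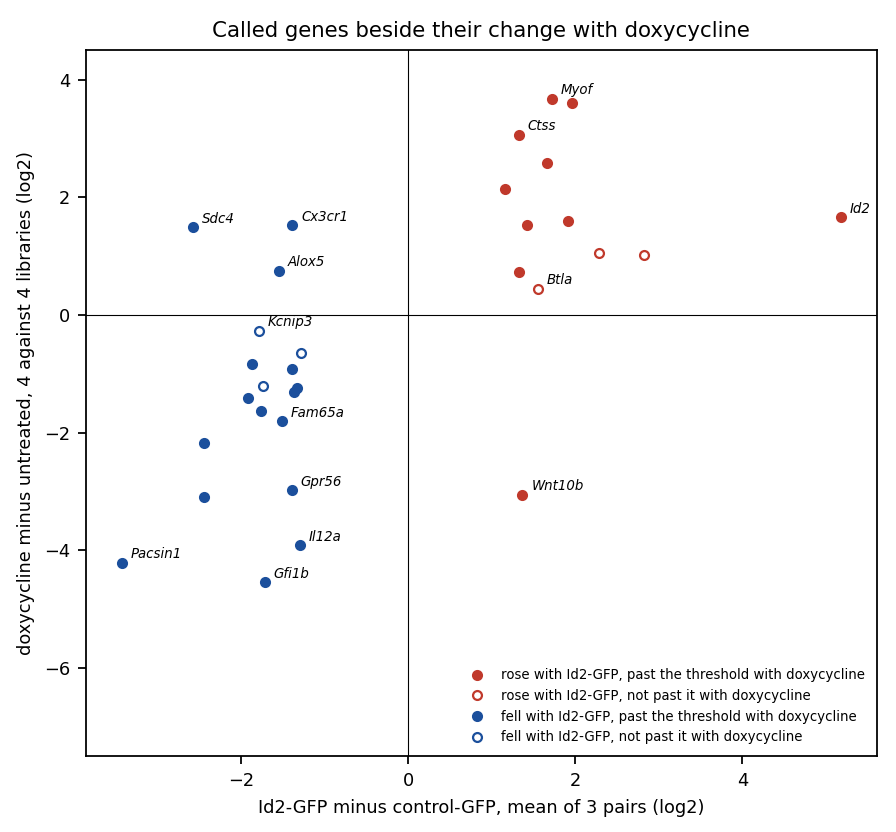
For the 32 called genes in both tables, the difference between Id2-GFP and control-GFP (horizontal axis, log2, mean of 3 pairs) beside the difference between doxycycline and untreated libraries (vertical axis, log2, 4 against 4). Filled points passed the threshold in both, and 22 of them lie in the lower left or upper right, with Sdc4, Cx3cr1, Alox5 and Wnt10b in the other quadrants. The 22 include Id2, the transduced gene.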

How the data were processed

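RNA was sequenced from 6 libraries of sorted cells, and per the submitters' processing notes limma, HTSeq, TopHat2, CASAVA 1.8.2 and the build mm10 were used, with no role or order given. The table deposited by the authors holds log2 CPM values, and the values themselves show how they were made: with an offset of 0.5 reads and a scaled library size, 100% of them give whole reads within 0.01 read. The authors had left out low genes, since every gene had over 1 CPM of its library's total in at least 2 libraries. The scaled sizes were 1.01 to 1.03 times the totals, and 0.913 for the control library of pair 3. Strand is not given in the sources used here, so reads of overlapping genes cannot be told apart.

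The deposited log2 values were tested with limma 3.58.1 in R 4.3.3 (variance trend, two-sided, Benjamini-Hochberg over all genes, threshold 0.05), with the replicate number as a block, and the fit was tested on simulated data. Changes are on that log2 scale, which understates those of low genes. The numbers were taken to pair the samples, though the labels do not say what equal numbers share. Deviations from the group means correlated at 0.472, 0.581 and 0.557 for equal numbers and at -0.545 to -0.0164 for unequal ones. Deviations within a group cancel out for each gene, so positive values for equal numbers force the unequal ones to be negative on balance. Nothing says that pairs came from separate animals, so p-values measure the spread between these samples, which may be technical. No library duplicated another.

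The comparison, the 37 gene lists and the tests were chosen with earlier results of these data known. Named genes are the Id, E-protein and oncogene genes, Gm6175, Hoxa9, Meis1, Myb, Myc, the called genes with the largest rises (15) and falls (15), predicted genes left out, the list members of smallest p (at most 4 a list), and genes past the threshold in both comparisons. The other called genes are named because their number is small, after their values were seen. Alternatives changed the block, libraries, scaling, offset, filter, weights and variance model. Python 3.11.15, Biopython 1.88 and matplotlib 3.10.9 were used, with gene positions from GENCODE M21 (GRCm38, the assembly of mm10).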

Additional observations from a re-analysis of the deposited data

How the results depend on the processing

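No called gene reversed under any alternative run. Without the pairing (no replicate block) 2 genes passed, and leaving out 1 library there gave 0 to 3. With the block, leaving out pair 1, 2 or 3 gave 95 to 468 genes; Gm6175, Id2 and the other called genes stayed past the threshold without pair 2 or pair 3, and 34 of the 35 did without pair 1. With 2 pairs, limma took every variance from the trend. The count was 5 with no variance trend, 1602 with array weights (which also took every variance from the trend), 9 with library totals as the scale, 19 with median-of-ratios scaling, 20 with quantile normalization, 20 with a mean log2 value of at least 3, and 80 at an adjusted p of 0.1. The share of called genes that rose was 45.7%, and 55.6% with library totals and 36.8% with median-of-ratios scaling. Added after seeing the data, pair as a random effect gave 4 genes, or 6 without the control library of pair 3, and voom weights gave 44, among them all 35. Robust moderation, a floor of 50 reads, other offsets and a mean log2 value of at least 1 gave 29 to 38. The count of called genes that changed the same way with doxycycline was 22, 27 with the replicate block in that comparison and 20 to 24 with 1 library left out. The count models planned for a table of counts were not run, because the deposited values are log2. Depth limits the genes of under 1 CPM, such as Siglech, where 1 read moves the value.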

Other observations

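Some gene lists not described above had medians that differed in sign between pairs. The 33 nuclear genes of the respiratory chain had a median of 0.09, 0.18 and -0.83 in pairs 1, 2 and 3, with 2 lower and none higher in 3 of 3 pairs, while the 13 mitochondrially encoded genes had -0.25, 0.75 and 0.34. Neither list had a gene past the test. In the 46 interferon-stimulated genes the medians were -0.20, 0.50 and -0.26, with 4 higher and 2 lower in 3 of 3 pairs. Their median level in the control library of pair 3 was 1.25 above that of the other controls, and in the Id2-GFP library of the same pair 0.74 above that of the other Id2-GFP libraries. Ifi203, an interferon-inducible gene, had 50.4, 57.8 and 132 CPM in the controls and 55.3, 93.1 and 225 CPM with Id2-GFP. In the 30 genes of stress responses and amino acid supply 11 were lower and 1 higher in 3 of 3 pairs, with a median of -0.32, or -0.10 without the control library of pair 3. Psat1, an enzyme of serine synthesis, differed by -0.61 ± 0.20, and Edem1, of the breakdown of misfolded proteins, by -0.66 ± 0.22.

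Some genes of other cell types or receptors came near the threshold without passing it. Vim, the intermediate filament vimentin, had 394, 670 and 252 CPM in the controls and 909, 1433 and 641 CPM with Id2-GFP, a difference of 1.22 ± 0.22 (limma's adjusted p = 0.072). Il1r1, the receptor of interleukin signals in inflammation, had 9.86, 8.16 and 13.2 CPM in the controls and 3.72, 2.72 and 5.90 CPM with Id2-GFP, with no overlap and a difference of -1.38 ± 0.25 (adjusted p = 0.075). Pdgfrb, a growth factor receptor of stromal cells, had 63.1, 77.3 and 74.7 CPM against 33.0, 41.7 and 43.8 CPM, a difference of -0.86 ± 0.18 (adjusted p = 0.12).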
